A study of Oryza sativa with 8 samples.

Results

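This account covers salt against control in rice leaves, 4 of the 8 RNA sequencing libraries of the series, chosen by the tissue and treatment in their titles. The salt group is 2 leaf libraries of cultivar Nipponbare, a japonica rice, taken from 2-week-old seedlings in liquid culture that had 150 mmol NaCl for 24 hours. The labels give that dose as an amount with no volume. The control group is 2 leaf libraries from seedlings of the same cultivar, age and culture that stayed without added salt. The root libraries, 2 with salt and 2 without, serve only to share the estimate of the spread and to test where the leaf change differs from that in root. The tissue field of the leaf libraries reads seedling, and that of the root libraries reads shoot, so the grouping rests on the titles. Replicates are biological per the labels' protocols, but whether seedlings were pooled is not given in the sources used here.

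Salt first lowers the water that roots can take up and later brings sodium into the shoot. Abscisic acid (ABA), made from carotenoids, is the main signal of water shortage: bound to its receptors it blocks the clade A PP2C phosphatases, which frees SnRK2 kinases to activate bZIP factors and through them genes for protective proteins. Plants also build compatible solutes such as proline, keep sodium out of the leaf blade through HKT transporters, adjust water channels, and may take apart chlorophyll.

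Leaf libraries had between 9640000 and 10700000 fragments, as implied by the confidence bounds of the deposited FPKM, a fragment count per unit of transcript length and of library size. Spearman correlation over tested genes was 0.983 between the salt replicates and 0.981 between the control replicates, against 0.919 to 0.924 between treatments. The 3 leaf markers RBCS-C, CAB1R and CAB2R summed to 18020 and 16990 FPKM in salt-treated leaves and 26160 and 23000 FPKM in control leaves. In root they summed to 238 FPKM in control replicate 1 and to between 41.8 and 68.1 FPKM in the other libraries. The 5 root markers Lsi1, Lsi2, IRT1, YSL15 and NAR2.1 summed to 6.90 and 7.15 FPKM in salt-treated leaves and 12.8 and 13.2 FPKM in control leaves, against at least 1079 FPKM in every root library. Lsi1, with 4.84 and 5.26 FPKM in salt-treated leaves and 10.002 and 9.17 FPKM in control leaves, held most of that sum, Lsi2 was at 0 in control replicate 1, and the part of such RNA in the results was not tested.

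Fold changes are salt over control on the log2(FPKM + 1) scale, which understates the change of low genes, and each is followed by its standard error (SE) where given. A gene is called higher or lower where limma gave a Benjamini-Hochberg adjusted p under 0.05 over the 23776 genes with at least 1 FPKM in 2 libraries. Of these, 3523 (14.8%) were called higher and 4504 (18.9%) lower in salt-treated leaves, with a median log2 change of -0.05. Leaving out 1 leaf library lowered the count of higher genes to between 2177 and 2539, the lowest without salt replicate 2. The count of lower genes then fell to between 2707 and 2930, whichever library was left out. With quantile normalization the split was 3962 higher and 3969 lower. In bulk leaf, a change in the share of a cell type and a change in RNA per cell cannot be told apart.

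Among genes of 5 functions that could be named, most members rose in the lists grouped under ABA and under osmoprotection. The named genes of the photosynthetic machinery were where fewest were called, in a fit where noise in root widens the error of several. Of 204 tested members, 79 were called higher and 34 lower, which is 38.7% and 16.7% beside 14.8% and 18.9% of all tested genes. The members were picked as known stress and leaf genes, so the shares describe the lists. The shares of all tested genes are also those to set beside the count of each list below. For ABA, 25 of 44 tested genes rose and 6 fell (median 0.70), and for osmoprotection 20 of 33 rose and 3 fell (median 0.74). The ABA count includes 15 stress transcription factors, DREB factors among them, of which 8 rose and 3 fell. The osmoprotection count includes 13 antioxidant enzyme genes, of which 5 rose and 2 fell. Transport genes split into 18 that rose and 11 that fell among 42 (median 0.09). The other hormones gave 11 that rose and 12 that fell among 55 (median 0.01), and photosynthesis 5 that rose and 2 that fell among 30 (median -0.115). At least 2-fold changes made up 46 of the 79 increases and 17 of the 34 decreases.

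**Figure D1:**
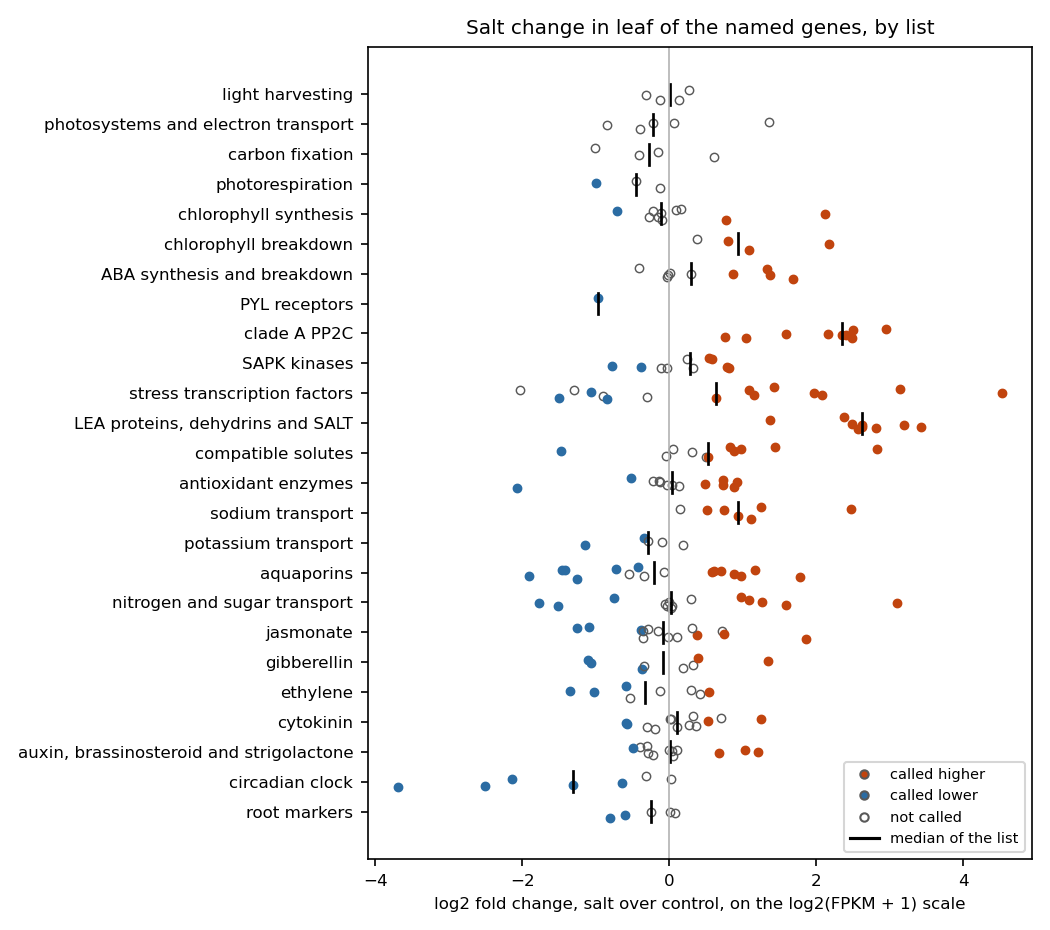
Each point is 1 tested gene, placed by its log2 fold change in leaf (horizontal axis, salt over control, log2(FPKM + 1) scale) and its list (vertical axis). Filled points passed the test, upwards in orange and downwards in blue, open points did not, and vertical bars are list medians. All 9 PP2C genes and all 9 genes of the LEA list lie to the right, while the 4 light-harvesting genes are open and close to 0.

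Most of the named genes of the photosynthetic machinery were called in neither direction. Of 16 tested genes for light harvesting, electron transport, carbon fixation and photorespiration, 1 was called lower and 0 higher. Many listed genes of these functions could not be named and were left out, among them PsbO, RCA, PRK and Lhca1 to Lhca6. A gene that missed the threshold is not shown to be equal in both groups. CAB2R (LOC_Os01g41710), an antenna protein of photosystem II, had 7774 and 6432 FPKM in salt-treated leaves and 6489 and 6429.9 FPKM in control leaves, and the groups overlapped. The antenna genes CAB1R, RCABP89 and RCABP69 had log2 changes of -0.32, 0.27 and -0.12. In root, control replicate 1 stood above control replicate 2 for CAB2R (70.0 and 16.4 FPKM) and RCABP89 (35.2 and 8.47 FPKM). Such a gap widens the error of a gene in the shared fit. With the leaf libraries fitted alone, CAB2R and RCABP89 were still not called (adjusted p = 0.898 and 0.550). PsaH, a subunit of photosystem I, had a change of 0.07, and PetC, the Rieske protein of the cytochrome b6f complex, -0.40 (adjusted p = 0.0888). OEE3, a protein of the oxygen-evolving complex, had 1144 and 1062 FPKM in salt-treated leaves, against 150.4 and 1229 FPKM in control leaves, so control replicate 1 stood far from the other 3 leaf libraries. The log2 change of OEE3 was 1.35 with that library and -0.16 without it, and neither was called. Without control replicate 2, which leaves that low library as the only control, OEE3 was called higher (log2 2.87, adjusted p = 0.00288).

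RBCS-C (LOC_Os12g17600, chromosome 12, 10080398 to 10081661 of the deposited loci), which encodes the small subunit of Rubisco, had 6406 and 6861 FPKM in salt-treated leaves and 14345 and 12412 FPKM in control leaves. Both salt libraries lay below both control libraries, with a log2 difference of -1.01 (SE 0.62) that did not pass the test (adjusted p = 0.260). With the leaf libraries fitted alone the adjusted p was 0.383. In that fit too the error is drawn towards that of other genes of like level. A missed call there does not rest on the replicates of 1 gene alone. The root controls, which share the estimate of the spread, had 104 and 21.7 FPKM of this gene. ALDP, the chloroplast fructose-bisphosphate aldolase, lay the other way, at 3781 and 3864 FPKM in salt-treated leaves and 2633 and 2404 FPKM in control leaves. It was not called either (log2 0.60, adjusted p = 0.454), nor with the leaf libraries fitted alone (adjusted p = 0.209).

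In photorespiration, the recycling of the product of Rubisco's oxygenase reaction, GDCSH (LOC_Os10g37180), the H protein of glycine decarboxylase, fell to 309 and 281 FPKM in salt-treated leaves, against 630.3 and 544 FPKM in control leaves (log2 -0.99, SE 0.21, adjusted p = 0.0118). The glycolate oxidase genes GLO1 and GLO5 had changes of -0.13 and -0.45 and were not called. LFNR1, a ferredoxin-NADP reductase, had 248 and 247 FPKM in salt-treated leaves and 422 and 474 FPKM in control leaves. The 2 groups of LFNR1 did not overlap, yet it was called only with the leaf libraries alone (adjusted p = 0.0135) or a pseudocount of 5 (adjusted p = 0.00974), against 0.112 in the shared fit. Leaving out 1 leaf library ended the call of GDCSH (without control replicate 1 or salt replicate 2, adjusted p up to 0.0713).

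Of 10 chlorophyll synthesis genes, 2 rose (20%) and 1 fell (10%), beside 14.8% and 18.9% of all tested genes. PORA (LOC_Os04g58200, chromosome 4, 34663055 to 34664723), a light-dependent protochlorophyllide oxidoreductase, had 294 and 284 FPKM in salt-treated leaves, against 66.6 and 64.3 FPKM in control leaves. Both salt libraries were far above both controls, and the log2 change was 2.13 (SE 0.30, adjusted p = 0.00242). Its paralogue PORB had 192 and 187 FPKM in salt-treated leaves and 223 and 186 FPKM in control leaves and was not called. CAO, which turns chlorophyllide a into b, rose (log2 0.78), and DVR, the divinyl reductase, fell (log2 -0.72). CAO rose less in leaf than in root, where its log2 change was 1.45 (difference -0.67, leaf minus root, adjusted p = 0.0102). The change was more negative in leaf for 3 of the 10 genes and more positive for 1. Over all tested genes those shares were 23.1% and 9.71%. The remaining 6 synthesis genes besides PORB, among them the 3 subunits of magnesium chelatase CHLH, CHLD and CHLI (log2 0.10, -0.23 and -0.16), were not called. Another of the 6, the chlorophyll synthase CHLG, was called lower with leaf libraries alone (log2 -0.27, adjusted p = 0.0429).

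Of 4 chlorophyll breakdown genes, 3 rose and 0 fell, with a list median of 0.94. SGR (LOC_Os09g36200, chromosome 9, 20868717 to 20871108), the stay-green magnesium dechelatase that starts chlorophyll a breakdown, had 60.8 and 85.2 FPKM in salt-treated leaves and 15.96 and 14.3 FPKM in control leaves. The groups did not overlap, with a log2 change of 2.18 (SE 0.17, adjusted p = 2.29e-04). RCCR1, the red chlorophyll catabolite reductase, had 45.1 and 58.9 FPKM in salt-treated leaves and 20.1 and 27.99 FPKM in control leaves (log2 1.09). NYC1, a chlorophyll b reductase, rose to 169 and 196 FPKM in salt-treated leaves, against 108 and 101 FPKM in control leaves (log2 0.80), while its partner NOL was not called (log2 0.38, adjusted p = 0.0545). NOL was called higher with a filter of 5 FPKM (adjusted p = 0.0472), at a pseudocount of 5 (adjusted p = 0.0274), with quantile normalization (adjusted p = 0.0271) and with scaling to the 75th percentile (adjusted p = 0.0421). The NYC1 change was more positive in leaf than in root, where it was 0.14 (difference 0.66, leaf minus root, adjusted p = 0.0107).

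**Figure D2:**
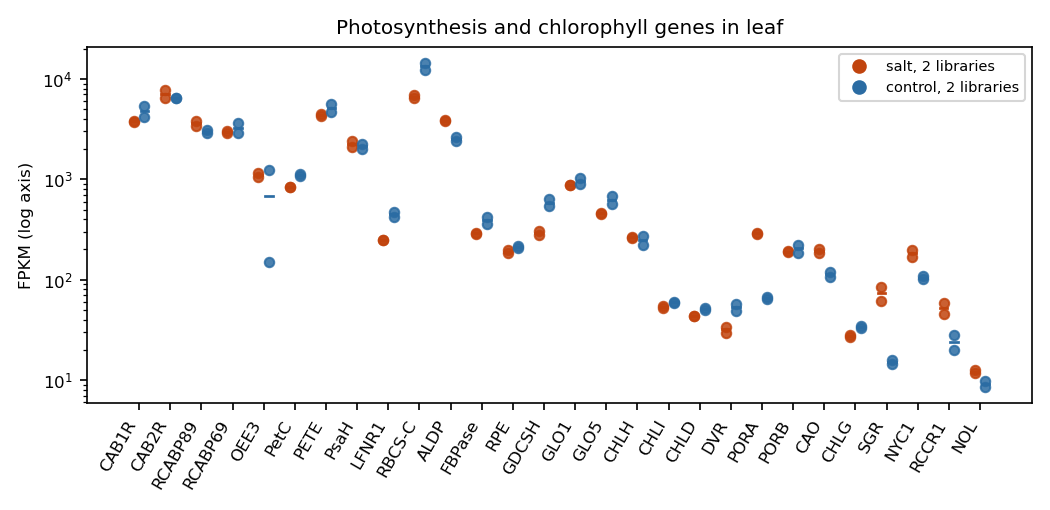
FPKM on a log axis for the named genes of photosynthesis and chlorophyll turnover in each leaf library (points) with group means (bars), salt in orange left of control in blue. The antenna genes overlap or lie close, RBCS-C is at 6406 and 6861 FPKM with salt and 14345 and 12412 FPKM without, PORA and SGR are higher with salt, and OEE3 has 1 low control library.

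In ABA synthesis, 4 of 9 genes for making and breaking down the hormone rose and 0 fell. NCED3 (LOC_Os03g44380, chromosome 3, 24959107 to 24961777), a 9-cis-epoxycarotenoid dioxygenase that catalyses the committed step, had 4.87 and 5.61 FPKM in salt-treated leaves and 0.776 and 1.12 FPKM in control leaves (log2 1.68, SE 0.36, adjusted p = 0.0125). The phytoene synthases, which feed the carotenoid pathway, all rose. PSY3 had 9.73 and 13.1 FPKM in salt-treated leaves and 3.58 and 3.92 FPKM in control leaves (log2 1.37). PSY2 had 106 and 105 FPKM with salt and 45.8 and 37.2 FPKM without (log2 1.33), and PSY1 rose by 0.87 on the log2 scale. The zeaxanthin epoxidase ZEP (log2 -0.02), the phytoene desaturase PDS (-0.03) and the 3 ABA 8'-hydroxylases ABA8ox1, ABA8ox2 and ABA8ox3 (-0.41, 0.30 and 0.01), which break the hormone down, were not called. PSY3 rose less in leaf than in root, where its log2 change was 3.79 (difference -2.42, adjusted p = 0.00762). Calls were lost on leaving out 1 leaf library for PSY3 (without control replicate 1, control replicate 2 or salt replicate 2, adjusted p up to 0.0911) and NCED3 (without control replicate 1, salt replicate 1 or salt replicate 2, adjusted p up to 0.0713).

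All 9 tested clade A PP2C genes, whose phosphatases hold ABA signalling off, rose, 8 of them at least 2-fold, with a median of 2.35. PP2C68 (LOC_Os09g15670, chromosome 9, 9567471 to 9568905) had 89.2 and 89.5 FPKM in salt-treated leaves and 10.1 and 11.5 FPKM in control leaves (log2 2.94, SE 0.53, adjusted p = 0.00607). PP2C30 had 77.9 and 68.1 FPKM in salt-treated leaves and 11.7 and 12.5 FPKM in control leaves. PP2C49 had 46.5 and 37.7 FPKM with salt and 6.17 and 7.19 FPKM without. In none of the 9 genes did the groups overlap, which adds little to the calls with 2 libraries a group. The share of all tested genes without overlap was not computed, and this limit holds wherever groups here are said not to overlap. PP2C06 and PP2C09 rose by 2.41 and 2.35, PP2C51 by 2.17, PP2C50 by 1.59, PP2C08 by 1.04 and PP2C53 by 0.76 on the log2 scale. The rise of PP2C06 and PP2C09 was larger than in root (differences 0.72 and 0.69, adjusted p = 0.0321 and 0.0401). PP2C51 had at most 0.168 FPKM in any root library, so its called difference restates the leaf change, and for the other 6 the difference was not called. The change was more positive in leaf for 9.71% of all tested genes.

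The only receptor gene that could be named, PYL11 (LOC_Os05g12260), fell to 16.8 and 18.2 FPKM in salt-treated leaves, against 38.5 and 32.1 FPKM in control leaves (log2 -0.97, adjusted p = 0.00390). Among the 10 SAPK genes, which encode SnRK2 kinases, 4 rose and 2 fell, 0 of them by 2-fold. Over all tested genes 14.8% were called higher and 18.9% lower. SAPK1 had 49.8 and 62.1 FPKM in salt-treated leaves and 31.9 and 30.4 FPKM in control leaves (log2 0.82), and SAPK3, SAPK6 and SAPK7 changed by 0.79, 0.58 and 0.54. SAPK2 fell to 30.4 and 29.3 FPKM in salt-treated leaves, against 53.6 and 50.6 FPKM in control leaves (log2 -0.78), and SAPK5 fell with a log2 change of -0.39. SAPK4, SAPK8, SAPK9 and SAPK10 were not called, with log2 changes of 0.24, -0.04, -0.11 and 0.33. Dropping 1 leaf library ended the calls of SAPK5 (without control replicate 1, control replicate 2 or salt replicate 1, adjusted p up to 0.121), SAPK6 (without control replicate 1 or salt replicate 2, adjusted p up to 0.0578) and SAPK7 (without control replicate 1, salt replicate 1 or salt replicate 2, adjusted p up to 0.204). Other settings ended the calls of SAPK5 (with leaf libraries alone, adjusted p = 0.0773) and SAPK7 (with leaf libraries alone, no filter, a pseudocount of 5 or the replicate block, adjusted p up to 0.131).

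Of 15 tested stress transcription factors, 8 rose and 3 fell, and they included the largest rise of all named genes. HOX24 (LOC_Os02g43330, chromosome 2, 26143309 to 26144731), a homeodomain-leucine zipper factor, had 300.0 and 233 FPKM in salt-treated leaves and 9.92 and 11.2 FPKM in control leaves. Both salt libraries were far above both controls, and the log2 change was 4.52 (SE 0.44, adjusted p = 5.10e-04). HOX22 (LOC_Os04g45810), of the same class, had 219.6 and 199 FPKM in salt-treated leaves and 23.5 and 22.4 FPKM in control leaves (log2 3.14). bZIP23 (LOC_Os02g52780, chromosome 2, 32276591 to 32281653), a bZIP factor of ABA signalling in rice, had 70.3 and 70.05 FPKM in salt-treated leaves and 16.6 and 17.9 FPKM in control leaves, without overlap (log2 1.96, SE 0.16, adjusted p = 2.56e-04).

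NAC6, a stress-responsive NAC factor, rose to 532 and 606 FPKM in salt-treated leaves, against 219 and 204 FPKM in control leaves (log2 1.42). NAC5 had 48.9 and 60.4 FPKM in salt-treated leaves and 24.3 and 23.6 FPKM in control leaves (log2 1.15). Both NAC changes were more positive in leaf than in root, where they were 0.37 for NAC6 and -0.59 for NAC5 (adjusted p of the difference = 0.0151 and 0.00124). DREB1C, a factor of the dehydration-responsive element-binding family, changed by 2.08, TRAB1, a bZIP factor, by 1.08, and HOX6 by 0.64. NAC4 fell to 5.97 and 3.68 FPKM in salt-treated leaves, against 17.1 and 13.4 FPKM in control leaves (log2 -1.50), and HOX4 and DREB2B fell with log2 changes of -1.07 and -0.85. DREB1A and DREB1B, with 2.23 and 1.67 FPKM of DREB1B in salt-treated leaves and 12.02 and 10.1 FPKM in control leaves, were not called (log2 -1.30 and -2.03). Their root controls were far apart, at 159 and 14.5 FPKM for DREB1B. DREB1A was called lower with leaf libraries alone (adjusted p = 0.0148). DREB1B was called lower with leaf libraries alone (adjusted p = 0.00986). Leaving out 1 leaf library ended the calls of TRAB1 (without salt replicate 1, adjusted p = 0.0571), DREB1C (without any 1 leaf library, adjusted p up to 0.131) and HOX4 (without control replicate 2, salt replicate 1 or salt replicate 2, adjusted p up to 0.0842). A change of setting ended the call of DREB1C (with no filter or a pseudocount of 0.1, adjusted p up to 0.165).

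All 9 tested genes for LEA proteins, dehydrins and the lectin SALT rose at least 2-fold, with a median of 2.62. LEA proteins accumulate in drying seeds and tissues and are thought to keep proteins and membranes stable. LEA3-1 (LOC_Os05g46480, chromosome 5, 26927607 to 26928902) had 1878 and 1828 FPKM in salt-treated leaves and 233 and 295 FPKM in control leaves (log2 2.82, SE 0.59, adjusted p = 0.0112). LEA3-2 had 37.3 and 32.4 FPKM in salt-treated leaves and 2.34 and 3.62 FPKM in control leaves (log2 3.19). SALT (LOC_Os01g24710, chromosome 1, 13903153 to 13904729), a mannose-binding lectin first described in salt-stressed rice, had 1503 and 2509.6 FPKM in salt-treated leaves and 191 and 169 FPKM in control leaves. The salt libraries of SALT differed from each other but both lay far above the controls (log2 3.43, SE 0.24, adjusted p = 1.54e-04).

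The 4 dehydrin genes of the RAB16 cluster lie side by side on chromosome 11, and reads of near-identical copies may have been shared among them. RAB21 (LOC_Os11g26790), also known as RAB16A, had 1024 and 1214 FPKM in salt-treated leaves and 174 and 227 FPKM in control leaves (log2 2.48). RAB16B, RAB16C and RAB16D rose with log2 changes of 2.38, 2.62 and 2.57. Each of the 4 rose less in leaf than in root, where the log2 changes were 4.30, 5.14, 5.45 and 6.40 and the root controls were at most 6.603 FPKM. DHN1, another dehydrin, had 889 and 853 FPKM in salt-treated leaves and 122 and 161 FPKM in control leaves (log2 2.63), and EM, a group 1 LEA gene of low level, changed by 1.38. LEA3-2 and SALT rose more in leaf than in root (differences 2.17 and 1.92, adjusted p = 0.0164 and 0.00679). Calls were lost on leaving out 1 leaf library for LEA3-1 (without control replicate 1, salt replicate 1 or salt replicate 2, adjusted p up to 0.0637). Other settings ended the call of RAB16C (with a pseudocount of 0.1, adjusted p = 0.101).

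**Figure D3:**
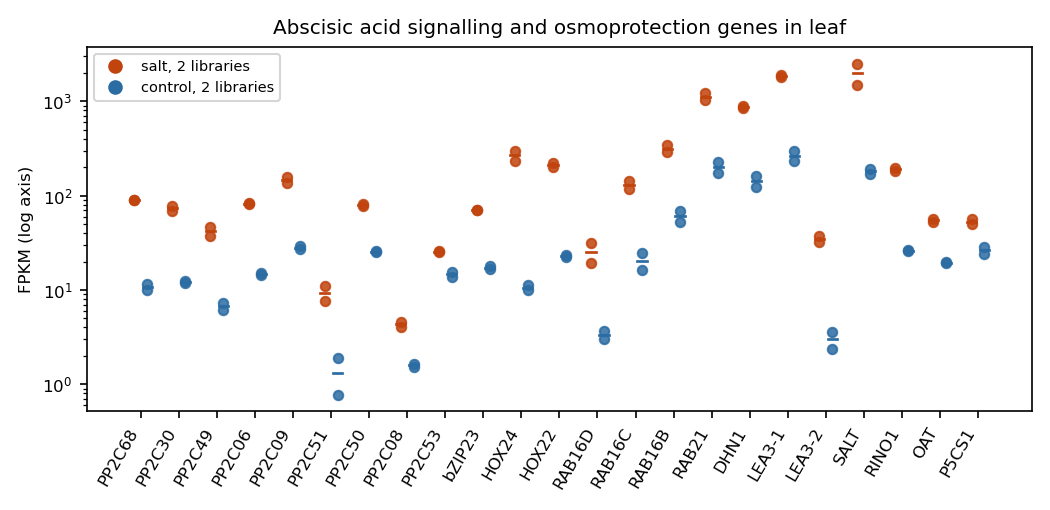
FPKM on a log axis for the 9 PP2C genes, 3 transcription factors and 11 osmoprotection genes in each leaf library (points) with group means (bars), salt in orange left of control in blue. All 23 genes were picked from those called higher, and in each both salt libraries lie above both control libraries. HOX24 and LEA3-2 are among the widest gaps.

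Enzymes of compatible solutes gave 6 that rose and 1 that fell among 11. RINO1 (LOC_Os03g09250, chromosome 3, 4825616 to 4829747), myo-inositol-1-phosphate synthase, had 198 and 184 FPKM in salt-treated leaves and 26.3 and 25.98 FPKM in control leaves. Replicates of RINO1 lay close together and the groups far apart (log2 2.82, SE 0.09, adjusted p = 1.92e-05). For proline, OAT, ornithine aminotransferase, rose to 52.9 and 56.6 FPKM in salt-treated leaves, against 19.4 and 19.6 FPKM in control leaves (log2 1.44). P5CS1, which makes proline from glutamate, had 50.05 and 55.98 FPKM in salt-treated leaves and 28.7 and 24.2 FPKM in control leaves (log2 0.98), while P5CS2 was not called (log2 0.51, adjusted p = 0.0842). P5CS2 was called higher with quantile normalization (adjusted p = 0.0399) and without salt replicate 1 (log2 0.77, adjusted p = 0.0245). Each of RINO1, OAT and P5CS1 rose more in leaf than in root (differences 1.104, 0.68 and 0.55, adjusted p = 0.00165, 0.0194 and 0.0334).

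For trehalose, the phosphatase genes TPP2 and TPP1 moved in opposite directions. TPP2 had 4.17 and 3.74 FPKM in salt-treated leaves and 1.66 and 1.72 FPKM in control leaves (log2 0.88), and TPP1 1.49 and 1.89 FPKM in salt-treated leaves and 8.36 and 4.98 FPKM in control leaves (log2 -1.48). ADC1, an arginine decarboxylase of polyamine synthesis, changed by 0.83, and BADH1, a betaine aldehyde dehydrogenase, by 0.53. BADH2 and SAMDC were not called (log2 0.05 and 0.30). SAMDC was called higher with a filter of 5 FPKM (adjusted p = 0.0442), at a pseudocount of 0.1 (adjusted p = 0.0490) and with scaling to the 75th percentile (adjusted p = 0.0399). Dropping 1 leaf library ended the calls of BADH1 (without control replicate 2 or salt replicate 2, adjusted p up to 0.0705), TPP1 (without control replicate 1 or salt replicate 1, adjusted p up to 0.0704) and ADC1 (without control replicate 2, salt replicate 1 or salt replicate 2, adjusted p up to 0.0835). A change of setting ended the call of BADH1 (with leaf libraries alone, adjusted p = 0.0578).

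Of 13 antioxidant enzyme genes, 5 rose (38.5%), 0 of them 2-fold, and 2 fell (15.4%), beside 14.8% and 18.9% of all tested genes. The largest change was downwards, in CatA (LOC_Os02g02400, chromosome 2, 824850 to 827644), a catalase that removes hydrogen peroxide. CatA had 289 and 311 FPKM in salt-treated leaves and 1154 and 1375 FPKM in control leaves, without overlap (log2 -2.07, SE 0.12, adjusted p = 8.65e-05). The catalase gene CatB had 88.8 and 104 FPKM in salt-treated leaves and 101 and 94.5 FPKM in control leaves, overlapped between groups, and was not called. The cytosolic ascorbate peroxidase genes APX1 and APX2 rose to 308 and 312 FPKM for APX1 and 294 and 277 FPKM for APX2 in salt-treated leaves, against 193 and 179 FPKM and 160.2 and 140.0 FPKM in control leaves. APX7 rose by 0.73 and the superoxide dismutases SODCC.2 and sodA by 0.88 and 0.49 on the log2 scale, while APX3 fell with a log2 change of -0.52. APX4, APX5, APX6 and APX8 were not called (log2 0.04, -0.13, 0.13 and -0.12), nor was sodCp (-0.23). sodCp was called lower with leaf libraries alone (adjusted p = 0.0454) and with quantile normalization (adjusted p = 0.0441). Leaving out 1 leaf library ended the calls of APX3 (without control replicate 1, control replicate 2 or salt replicate 1, adjusted p up to 0.185) and sodA (without control replicate 1, salt replicate 1 or salt replicate 2, adjusted p up to 0.203). Other settings ended the calls of APX3 (with leaf libraries alone, no filter, a pseudocount of 0.1 or quantile normalization, adjusted p up to 0.124) and sodA (with leaf libraries alone, no filter or quantile normalization, adjusted p up to 0.0822).

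Sodium transport genes rose in 6 of 7 tested cases, and 0 fell. The 7 are 5 HKT genes and 2 genes of regulators, the sensor CBL4 and the kinase CIPK24. The antiporter genes SOS1 and NHX1 to NHX5 of this list could not be named and were left out. HKT1;1 (LOC_Os04g51820, chromosome 4, 30724244 to 30727084), a sodium transporter, had 16.0 and 17.8 FPKM in salt-treated leaves and 2.41 and 2.02 FPKM in control leaves. The groups did not overlap (log2 2.48, SE 0.13, adjusted p = 6.67e-05), and no root library exceeded 0.330 FPKM. HKT1;3 had 4.71 and 4.47 FPKM in salt-treated leaves and 1.201 and 2.04 FPKM in control leaves (log2 1.11). HKT2;4 had 3.36 and 2.59 FPKM in salt-treated leaves and 0.898 and 0.475 FPKM in control leaves (log2 1.24) and was listed at 0 in all 4 root libraries. HKT2;4 reached 1 FPKM only in the salt leaf libraries, so it passed the filter through the group where it is high, and it could not be tested without either of them. Leaving HKT2;4 aside, 5 of 6 sodium transport genes rose.

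HKT1;5, which in rice draws sodium out of the xylem sap, had at most 0.259 FPKM in any leaf library and was not called in leaf, while its log2 change in root was 3.05. HKT2;1 had 1.97 and 2.03 FPKM in salt-treated leaves and 0.920 and 0.673 FPKM in control leaves (log2 0.74). HKT1;4 and HKT2;3 stayed under 1 FPKM in every library and were not tested. The sensor CBL4 and the kinase CIPK24, rice counterparts of SOS3 and SOS2, rose with log2 changes of 0.93 and 0.51. Calls were lost on leaving out 1 leaf library for HKT2;1 (without control replicate 2, adjusted p = 0.0556) and CIPK24 (without control replicate 1, control replicate 2 or salt replicate 2, adjusted p up to 0.124).

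Of 5 tested potassium transport genes, 0 were called higher and 2 lower, beside 14.8% and 18.9% of all tested genes. AKT1 (LOC_Os01g45990, chromosome 1, 26119708 to 26126165), an inward potassium channel, had 3.26 and 3.41 FPKM in salt-treated leaves and 8.35 and 8.84 FPKM in control leaves, without overlap (log2 -1.14, SE 0.09, adjusted p = 1.88e-04). HAK1 fell to 6.73 and 7.28 FPKM in salt-treated leaves, against 9.82 and 8.53 FPKM in control leaves (log2 -0.34). HAK5, HAK7 and HAK16 were not called (log2 -0.29, -0.10 and 0.19). Dropping 1 leaf library ended the call of HAK1 (without control replicate 1, salt replicate 1 or salt replicate 2, adjusted p up to 0.132). A change of setting ended the call of HAK1 (with leaf libraries alone or quantile normalization, adjusted p up to 0.107).

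Aquaporin genes, which encode water channels, moved in both directions. Among 10 tested plasma membrane intrinsic protein (PIP) genes 6 rose and 3 fell, and among 6 tonoplast intrinsic protein (TIP) genes 1 rose and 3 fell. The split between the classes was not tested. PIP1;3 (LOC_Os02g57720, chromosome 2, 35349673 to 35351454) had 32.5 and 35.6 FPKM in salt-treated leaves and 8.99 and 9.46 FPKM in control leaves (log2 1.78, SE 0.14, adjusted p = 2.35e-04). PIP2;1 had 472 and 442 FPKM in salt-treated leaves and 232 and 230.3 FPKM in control leaves (log2 0.98). PIP1;2, an abundant member, had 955 and 833 FPKM in salt-treated leaves and 466 and 500.2 FPKM in control leaves (log2 0.88). The groups of these 3 genes did not overlap, which adds little to their calls with 2 libraries a group. PIP2;4, PIP2;2 and PIP1;1 rose by 0.70, 0.61 and 0.58. PIP2;7 fell to 106 and 111 FPKM in salt-treated leaves, against 291 and 294 FPKM in control leaves (log2 -1.42), and PIP2;6 and PIP2;5 fell with log2 changes of -0.72 and -0.42. PIP2;5 was at a low level in leaf. At a pseudocount of 5 the log2 changes were 0.29 for PIP2;4 and -0.15 for PIP2;5. PIP2;3 was not called (log2 -0.07) and PIP2;8 was not tested. Leaving out 1 leaf library ended the calls of PIP1;1 (without control replicate 2, salt replicate 1 or salt replicate 2, adjusted p up to 0.0927), PIP2;2 (without salt replicate 1, adjusted p = 0.0540), PIP2;4 (without control replicate 1 or control replicate 2, adjusted p up to 0.0840), PIP2;5 (without control replicate 1, salt replicate 1 or salt replicate 2, adjusted p up to 0.154), PIP2;6 (without salt replicate 2, adjusted p = 0.0533) and PIP2;7 (without any 1 leaf library, adjusted p up to 0.109). Other settings ended the calls of PIP1;1 (with no filter, adjusted p = 0.0956), PIP2;4 (with leaf libraries alone or a pseudocount of 5, adjusted p up to 0.0978), PIP2;5 (with leaf libraries alone, a pseudocount of 5 or quantile normalization, adjusted p up to 0.174) and PIP2;7 (with no filter or a pseudocount of 0.1, adjusted p up to 0.221).

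TIP1;1 (LOC_Os03g05290), the most abundant tonoplast aquaporin of leaf among those named, fell to 949 and 783 FPKM in salt-treated leaves, against 2235 and 2518 FPKM in control leaves (log2 -1.46). TIP2;2 had 812 and 728 FPKM in salt-treated leaves and 1812 and 1848 FPKM in control leaves (log2 -1.25), and TIP4;1 69.5 and 57.3 FPKM in salt-treated leaves and 224 and 254 FPKM in control leaves (log2 -1.90, SE 0.20, adjusted p = 7.18e-04). In each of these 3 genes both salt libraries lay below both controls, which adds little to the calls with 2 libraries a group. TIP1;2 went the other way, with 88.5 and 72.9 FPKM in salt-treated leaves and 38.1 and 32.4 FPKM in control leaves (log2 1.17). The salt change was more negative in leaf than in root for 11 of the 16 tested aquaporin genes, as for 23.1% of all tested genes, and more positive for 0. Both PIP1;3 and PIP2;1, for example, rose less in leaf than in root, where they changed by 3.54 and 2.13, while TIP1;1 and TIP4;1 fell in leaf and were not called in root. A change of setting ended the call of TIP1;1 (with no filter, adjusted p = 0.0580).

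**Figure D4:**
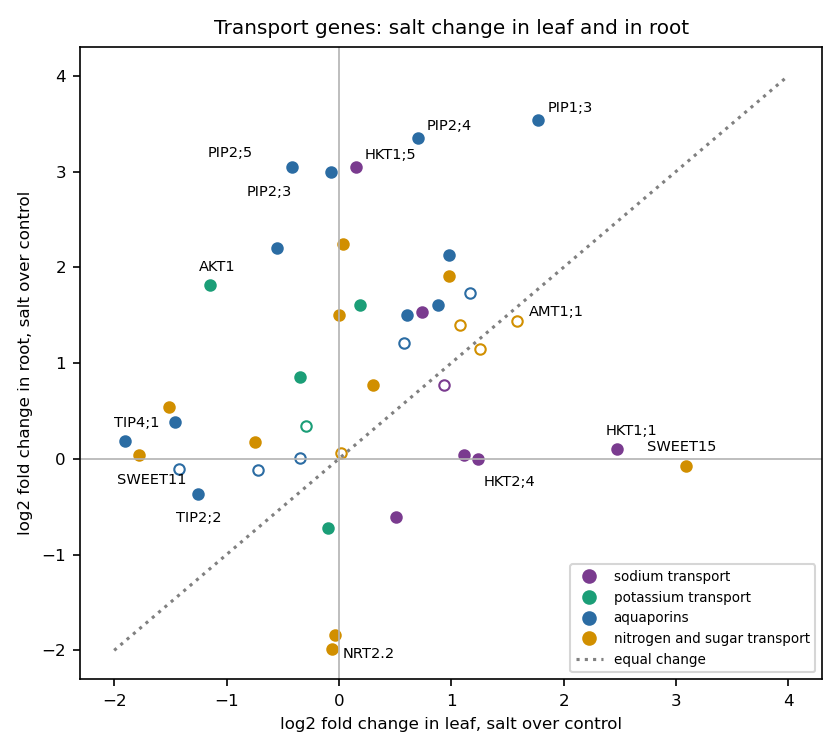
Log2 fold change of each tested transport gene in leaf (horizontal axis) and root (vertical axis), both salt over control, coloured by list; filled points had a called difference between the tissues and the dotted line marks equal change. HKT1;1 and SWEET15 lie far to the right near 0 in root. PIP2;4, HKT1;5 and AKT1 lie high in root, with leaf changes of 0.70, 0.15 and -1.14.

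Sugar and nitrogen transporters gave 5 that rose (35.7%) and 3 that fell (21.4%) among 14, beside 14.8% and 18.9% of all tested genes. SWEET15 (LOC_Os02g30910, chromosome 2, 18454404 to 18457136), of the SWEET family of sugar transporters, had 11.6 and 13.4 FPKM in salt-treated leaves and 0.629 and 0.524 FPKM in control leaves. Salt libraries were well above the controls (log2 3.09, SE 0.14), and the root libraries had at most 0.107 FPKM. SWEET15 thus passed the filter only through the salt leaf libraries, and could not be tested without either of them. Leaving it aside, 4 of 13 sugar and nitrogen transporters rose. SWEET13 had 69.8 and 95.1 FPKM in salt-treated leaves and 39.8 and 36.3 FPKM in control leaves (log2 1.08). SWEET11 fell to 0.890 and 1.04 FPKM in salt-treated leaves, against 6.895 and 4.75 FPKM in control leaves (log2 -1.78), and SWEET14 to 6.73 and 8.99 FPKM, against 26.3 and 21.9 FPKM in control leaves (log2 -1.51). SWEET4 was also lower (log2 -0.75), so members of the family moved in both directions. The sucrose transporters SUT1 and SUT2, which load the phloem or export sucrose from vacuoles, rose by 0.98 and 1.26 on the log2 scale. AMT1;1, an ammonium transporter, had 46.1 and 50.5 FPKM in salt-treated leaves and 15.6 and 15.1 FPKM in control leaves (log2 1.59). The nitrate transporters NRT2.1, NRT2.2 and NRT2.3 were under 1 FPKM in every leaf library and were not called (log2 -0.03, -0.06 and 0.02).

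Among jasmonate genes 3 of 14 rose and 3 fell, which is 21.4% each. Over all tested genes 14.8% were called higher and 18.9% lower, the shares to set beside this and the following hormone lists. AOS1, the allene oxide synthase that starts the jasmonate branch, fell to 4.86 and 4.48 FPKM in salt-treated leaves, against 14.2 and 11.1 FPKM in control leaves (log2 -1.26), and JAR1, which makes the active isoleucine conjugate, fell with a log2 change of -0.38. The JAZ genes encode repressors of the jasmonate response. JAZ11 (LOC_Os03g08320) had 67.4 and 93.1 FPKM in salt-treated leaves and 19.1 and 23.5 FPKM in control leaves (log2 1.86, SE 0.33, adjusted p = 0.00597), and JAZ12 and JAZ4 changed by 0.75 and 0.38. JAZ3 went down, to 22.4 and 23.4 FPKM in salt-treated leaves, against 49.7 and 50.1 FPKM in control leaves (log2 -1.09). The salt change was more negative in leaf than in root for 8 of the 14 genes and more positive for 0. Among all tested genes it was more negative for 23.1% and more positive for 9.71%. Calls were lost on leaving out 1 leaf library for AOS1 (without control replicate 1 or salt replicate 2, adjusted p up to 0.0601), JAR1 (without control replicate 1, salt replicate 1 or salt replicate 2, adjusted p up to 0.0717), JAZ4 (without control replicate 1, control replicate 2 or salt replicate 2, adjusted p up to 0.0895) and JAZ12 (without any 1 leaf library, adjusted p up to 0.174). Other settings ended the call of JAZ12 (with no filter, a pseudocount of 0.1, quantile normalization or the replicate block, adjusted p up to 0.101).

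Of 8 gibberellin genes, 2 rose and 3 fell. KO2, ent-kaurene oxidase, fell to 24.8 and 22.3 FPKM in salt-treated leaves, against 46.8 and 53.5 FPKM in control leaves (log2 -1.06), and KAO, ent-kaurenoic acid oxidase, to 11.6 and 12.4 FPKM, against 26.7 and 27.2 FPKM in control leaves (log2 -1.11). GA20ox2 (LOC_Os01g66100, chromosome 1, 38382382 to 38385504), the gibberellin 20-oxidase known as the semidwarf gene SD1, had 12.6 and 10.2 FPKM in salt-treated leaves and 3.93 and 3.82 FPKM in control leaves, without overlap (log2 1.34, SE 0.17, adjusted p = 0.00147). The receptor GID1 rose by 0.40 on the log2 scale and the F-box gene GID2 fell with a change of -0.37, while the DELLA repressor SLR1 was not called (-0.34). Dropping 1 leaf library ended the calls of GID1 (without salt replicate 1, adjusted p = 0.0505) and GID2 (without any 1 leaf library, adjusted p up to 0.110).

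Of 8 ethylene genes, 1 rose and 3 fell. ACO1, an ACC oxidase of the last step of ethylene synthesis, had 17.9 and 18.3 FPKM in salt-treated leaves and 53.7 and 42.3 FPKM in control leaves (log2 -1.35). Of the receptors, ETR3 fell to 5.35 and 4.54 FPKM in salt-treated leaves, against 10.8 and 11.3 FPKM in control leaves (log2 -1.02), ETR2 fell with a change of -0.59, ERS2 rose by 0.54, and ERS1 was not called (-0.12). The ACC synthase genes ACS1 and ACS2, at under 5 FPKM in every leaf library, were not called (log2 0.30 and 0.42). ACS2 was called higher without salt replicate 1 (log2 0.92, adjusted p = 0.0299). Leaving out 1 leaf library ended the calls of ERS2 (without control replicate 1 or salt replicate 1, adjusted p up to 0.0672) and ETR2 (without control replicate 1, salt replicate 1 or salt replicate 2, adjusted p up to 0.0863). A change of setting ended the calls of ERS2 (with leaf libraries alone, adjusted p = 0.0585) and ETR2 (with leaf libraries alone, adjusted p = 0.0537).

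Of 13 tested cytokinin genes, 2 rose and 2 fell. CKX4, a cytokinin oxidase that degrades the hormone, had 6.04 and 7.91 FPKM in salt-treated leaves and 2.36 and 2.295 FPKM in control leaves (log2 1.25), whereas CKX9 fell with a change of -0.59. LOG, which activates cytokinins, fell to 77.9 and 80.5 FPKM in salt-treated leaves, against 124 and 114 FPKM in control leaves (log2 -0.58), and the type-A response regulator RR4 rose by 0.52. Among 12 auxin, brassinosteroid and strigolactone genes 3 rose and 1 fell. GH3-8 and GH3-2, which conjugate auxin to amino acids, had 3.77 and 6.68 FPKM for GH3-8 and 2.17 and 4.15 FPKM for GH3-2 in salt-treated leaves, against 1.52 and 1.73 FPKM and 0.668 and 1.35 FPKM in control leaves. D17, a strigolactone synthesis gene, changed by 0.68 and BZR1, a brassinosteroid transcription factor, by -0.49, while the receptor gene BRI1 was not called (-0.40). Calls were lost on leaving out 1 leaf library for CKX9 (without control replicate 1, salt replicate 1 or salt replicate 2, adjusted p up to 0.0750), LOG (without control replicate 1 or salt replicate 1, adjusted p up to 0.0576), GH3-2 (without control replicate 1 or salt replicate 2, adjusted p up to 0.107), BZR1 (without control replicate 2, salt replicate 1 or salt replicate 2, adjusted p up to 0.204) and D17 (without control replicate 2, salt replicate 1 or salt replicate 2, adjusted p up to 0.136). Other settings ended the calls of GH3-2 (with leaf libraries alone or no filter, adjusted p up to 0.106), GH3-8 (with leaf libraries alone, adjusted p = 0.0565), BZR1 (with leaf libraries alone, no filter, a pseudocount of 5, quantile normalization or the replicate block, adjusted p up to 0.0789) and D17 (with no filter, adjusted p = 0.0536).

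Across the 5 functions, the salt change differed between leaf and root for 96 of 204 tested genes, more positive in leaf for 33 and more negative for 63, beside 32.8% of all tested genes. Among the 96 genes, 4 reached 1 FPKM in a single group only. In 13 of the 204 genes, among them CatA, AKT1 and GH3-2, the change was called in opposite directions in the tissues, as it was for 4.95% of all tested genes. In root, 43.4% of all tested genes were called.

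Clock genes were set beside the functions as a check on the time of day. Of 7 tested, 5 fell in leaf and 0 rose. PRR1 (LOC_Os02g40510, chromosome 2, 24569294 to 24572560), an evening regulator, had 1.68 and 1.93 FPKM in salt-treated leaves and 32.6 and 37.8 FPKM in control leaves, far apart without overlap (log2 -3.69, SE 0.11, adjusted p = 1.92e-05). GI, the GIGANTEA gene of evening timing and flowering, had 67.5 and 93.6 FPKM in salt-treated leaves and 468 and 441 FPKM in control leaves (log2 -2.50). PRR95 had 36.4 and 44.1 FPKM in salt-treated leaves and 172 and 188 FPKM in control leaves (log2 -2.14), and PRR37 and PRR73 fell with log2 changes of -1.30 and -0.64. ELF3 and PCL1, parts of the evening complex, were not called (log2 0.02 and -0.32). In root the log2 changes were -3.53 for PRR1, -2.45 for GI and -1.84 for PRR95, and the difference between tissues was called for 0 of the 7. The hour of collection is not given in the sources used here, so a difference in time of day and an effect of salt on these genes cannot be told apart, and the part of either in the other leaf changes was not tested.

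**Figure D5:**
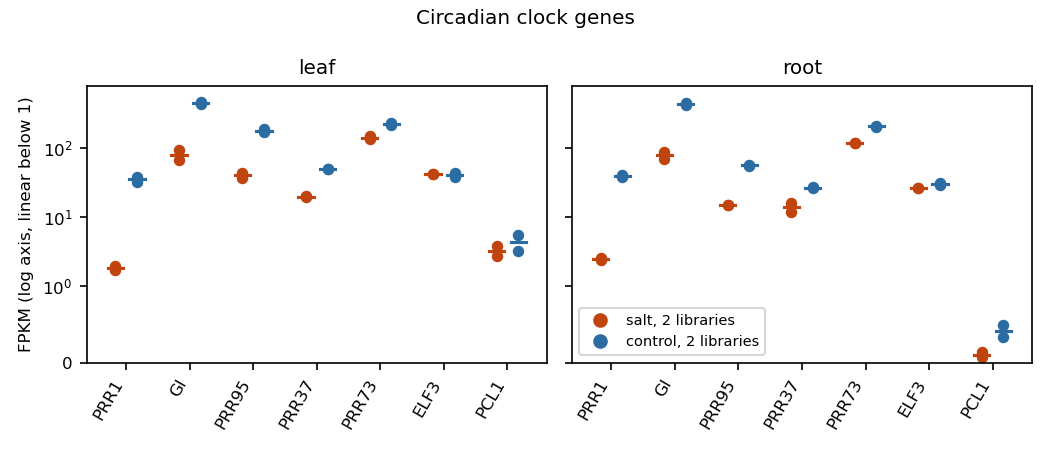
FPKM of 7 clock genes in leaf (left) and root (right), with salt in orange left of control in blue, points for libraries and bars for means, on an axis that is logarithmic above 1 and linear below. PRR1, GI, PRR95, PRR37 and PRR73 are lower with salt in both tissues, and ELF3 is level in leaf.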

How the data were processed

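RNA was sequenced in 8 libraries, and the deposited values are FPKM per gene in the Cufflinks gene tracking format, per the file headers. The authors made them with Cufflinks 2.2.1 and Cuffdiff after TopHat2 2.0.13, as listed in the submitters' processing notes. For the genome build, annotation and strandedness the sources used here give nothing, so FPKM of overlapping genes or of near-identical copies (the RAB16 cluster, CAB1R and CAB2R, HKT and PIP neighbours) are uncertain. Coordinates are those of the deposited loci, 1-based. Each library lists 55806 entries on chromosomes, of which 9 with repeated identifiers were left out, leaving 55797 genes. Further unplaced entries (185) in 3 libraries were not used.

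A gene was tested if 2 libraries reached 1 FPKM. Values were transformed as log2(FPKM + 1), with a pseudocount of 1 and no further scaling, and limma 3.58.1 (R 4.3.3) fitted 4 group means with a prior variance that follows the mean level. Calls are at a Benjamini-Hochberg adjusted p under 0.05 over all tested genes. The fit was tested on simulated data with independent normal noise and changes put only into well-expressed leaf genes. That test does not cover low genes or outlying libraries. Fragments per library, 9060000 to 10700000, were estimated from the confidence bounds. Sharing 1 estimate of the spread means that noise of a gene in root widens its error in leaf.

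The files give identifiers only. Pairs of identifier and name for 374 genes, set down from general knowledge of rice gene work with no source table, were checked against RefSeq (ASM3414082v1): a name was kept where RefSeq has a gene of that name on the same chromosome, at 0.67 to 1.5 times the length and in the same order along it. This held for 225 genes, 176 of them with a length within 5%, and only these are named; it is indirect evidence of identity. The other genes had no such name (129), another length (15) or another order (1), or were not found (4). The members and lists were chosen with earlier results of these data known. By the rule for naming, each list's called genes with the 6 largest changes in each direction are named, and other members with their values. Alternatives tried were other pseudocounts, filters and scalings, a replicate block, leaf libraries alone, and leaving out each leaf library.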

Additional observations from a re-analysis of the deposited data

Results flagged for a closer look

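For 13 named genes, of 204 tested in the 5 functions, the salt change was called in opposite directions in leaf and root. The difference between the tissues (leaf minus root, log2) was called as well. The same held for 4.95% of all tested genes, so the count is not read as a trait of the named genes. Leaf calls of HOX4, CIPK24, HAK1, PIP2;5, GID1, GID2, LOG and GH3-2 were lost without 1 leaf library or another. No explanation was tested for any of the 13.

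The largest gaps with a fall in leaf were in CatA, PIP2;5 and AKT1. CatA, the catalase, changed by -2.07 in leaf and 1.42 in root, a difference of -3.49. PIP2;5, an aquaporin under 2 FPKM in every leaf library, changed by -0.42 in leaf and 3.05 in root, a difference of -3.47. AKT1, the potassium channel, changed by -1.14 in leaf and 1.82 in root, a difference of -2.96. HOX4 and LOG, called lower in leaf and higher in root, differed by -1.96 and -1.75. The kinase gene SAPK2, the repressor gene JAZ3, the F-box gene GID2 and the potassium transporter gene HAK1 did likewise, with differences of -1.62, -1.45, -1.43 and -1.19.

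The other 4 genes rose in leaf and fell in root. GH3-2, which conjugates auxin, changed by 1.03 in leaf and -2.44 in root, a difference of 3.47. NAC5 changed by 1.15 in leaf and -0.59 in root, a difference of 1.74. CIPK24 and GID1 differed by 1.12 and 0.67.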

How the results depend on the processing

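Across 12 alternative settings no called gene of those named reversed its direction. Of the 113 called genes of the 5 functions, 73 kept their call under every setting in which they were tested, and 68 of these were tested under all 12. Without 1 leaf library 37 lost it, and under another setting 20 did. Fewer libraries leave less evidence per gene by construction.

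Leaving out each leaf library in turn gave 2177 to 2539 higher and 2707 to 2930 lower genes over the whole table. It gave 5 to 6 photosynthesis genes higher and 1 to 2 lower, 20 to 23 ABA genes higher and 4 to 5 lower, and 16 to 18 osmoprotection genes higher and 1 to 3 lower. For transport it gave 14 to 16 higher and 7 to 10 lower, for the other hormones 7 to 8 higher and 6 to 10 lower, and for the genes that differ between leaf and root 64 to 72, against 96 with all libraries. The lone library then left in its group is assumed to vary like those of the other groups. With the leaf libraries fitted alone, 4 photosynthesis genes were called lower, against 2, LFNR1 and CHLG being added, and the cause was not tested. EIN2 (log2 -0.54), JAZ6 (0.72), RR2 (0.26) and CKX11 (0.36), not called in the shared fit, also gained a call there. TIP2;1 gained one at a pseudocount of 0.1 (log2 -1.99), and SUT4 with other filters and scalings (log2 0.30 to 0.40).

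The correlation of replicate differences was -0.021 between leaf salt and leaf control and ranged from -0.021 to 0.213 over the 6 pairs of groups, the highest between root salt and root control. The numbers were therefore not taken to pair the samples. The fit with the replicate block called 3375 genes higher and 4403 lower. Named calls lost with the block were SAPK7, JAZ12 and BZR1, and RR6 gained one.

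Scaling to the 75th percentile gave 3734 higher and 4433 lower genes, and quantile normalization 3962 and 3969. Whether depth limited the calls among low genes was not tested. No scaling moved the median change of all genes by over 0.1.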
